A study of Homo sapiens with 4 samples.

Results

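The genes CYBB, CYBA, NCF1, NCF4 and RAC2 encode subunits of the phagocyte NADPH oxidase, and the chromatin around them was described from peaks of the assay for transposase-accessible chromatin (ATAC-seq), in which the enzyme Tn5 cuts accessible DNA and inserts sequencing adapters. The members were these 5 genes, taken by name out of 19458 protein-coding genes with at least 1 accessible region in their windows. The window of a gene was its body in GENCODE release 44, lifted to GRCh37 (hg19), with 50 kb on either side. Overlapping peaks of the 4 libraries were merged into 78063 regions, of which 58 lay in the 5 windows. The cells were HL-60, a human acute promyelocytic leukemia line from peripheral blood that all-trans retinoic acid (ATRA) drives toward granulocytes. The ATRA group received 1 µM ATRA from an ethanol stock for 4 days, and the control group received the same volume of ethanol for 4 days, with the medium and the agent renewed once in both groups. Each group had 2 replicates of this line, described in the study as biologically independent.

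The phagocyte NADPH oxidase moves electrons from NADPH across the membrane onto oxygen and thereby makes superoxide, the start of the respiratory burst by which neutrophils kill microbes. CYBB (gp91phox, also called NOX2) and CYBA (p22phox) form the membrane-bound flavocytochrome. NCF1 (p47phox) and NCF4 (p40phox) wait in the cytosol and move to the membrane upon activation together with the GTPase RAC2. Inherited loss of CYBB, CYBA, NCF1 or NCF4 causes chronic granulomatous disease. The gain of oxidase activity is a classical readout of HL-60 maturation. Oxidase activity and RNA were not analysed here, so the values below describe accessibility only.

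The lists held 43494 and 63541 peaks in the ATRA libraries and 42081 and 45903 in the control libraries, and the second ATRA list also had the widest peaks (median 416 bp, compared with 291 to 328 bp in the other lists). Read counts were not in the lists, so the sequencing depth was unknown, and a deeper library can give more and wider peaks. The deposited score has no stated scale, so each score was turned into its percentile within its own list, where 100 is the top of that list. Of 9 myeloid marker genes, 4 (SPI1, CEBPE, CD33 and PTPRC) had a promoter peak in all 4 libraries and 2 (ELANE and AZU1) had none in any. No T cell, erythroid or epithelial marker promoter, of 3 tested for each type, had a peak, and of 2 B cell markers (MS4A1 and CD79A) CD79A had one in the second ATRA library alone. In a bulk sample, fewer cells with an accessible site and less accessibility per cell cannot be told apart.

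A region was called ATRA-specific when both ATRA libraries had a peak there and not both control libraries had one, and control-specific in the reverse case. Of the 58 regions, 16 (27.6%) were ATRA-specific and 2 (3.45%) were control-specific, whereas 17.9% of all regions were ATRA-specific and 9.53% were control-specific. The 16 ATRA-specific regions were made of 6 with no peak in either control library (10.3% of the 58, against 8.94% of all regions), 4 with a peak in the first control library and 6 with a peak in the second. Both control-specific regions lacked peaks in the ATRA libraries altogether, and this class held 3.37% of all regions. A further 19 regions had peaks in all 4 libraries, as did 30.3% of all regions. The remaining 21 regions had peaks in at most 1 library of each group. Of these, 17 came from a single library (3 and 8 in the ATRA libraries, 0 and 6 in the control libraries) at percentiles from 1.2 to 61.4. When each list was reduced to its top 42081 peaks, 14 of 48 regions (29.2%) were ATRA-specific against 15.7% of all regions, and 5 (10.4%) were control-specific against 12.6%, while 5 of the ATRA-specific ones had no control peak (10.4%, against 7.15%). With peaks of a score of at least 100 alone, 14 of 34 regions (41.2%) were ATRA-specific against 21.4% of all regions, 10 (29.4%) had no control peak against 11.4%, and 1 (2.94%) was control-specific against 8.07%. This minimum cut the lists unequally. A score of 102.1 stood at percentile 44.5 of the second ATRA list, and one of 106.5 at 59.8 of the second control list. Without the first control library 10 regions were ATRA-specific and 9 were control-specific, and without the second control library 5 were control-specific. With any 1 library left out, 10 to 14 regions had peaks in every ATRA library kept and in no control library kept. Leaving out any library eases this rule, so the count could not fall below 6. The matching shares of all regions were not computed.

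Every one of the 5 windows had an ATRA-specific region, which was also the case for 66.5% of all genes with a region. A region present in both ATRA libraries and absent from both control libraries was found in 4 of the 5 windows, all but that of CYBA, compared with 42.4% of all genes. These shares cover genes with any number of regions, whereas the member windows held 8 to 17 each, and region number was not matched. Counted by region, this class was near the background (10.3% against 8.94%). The NCF1 region of this class lies in repeated sequence, and that of RAC2 was not ATRA-specific in the lists of equal length. CYBB had 3 such regions, and 4.53% of all genes had at least as many.

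**Figure D1:**
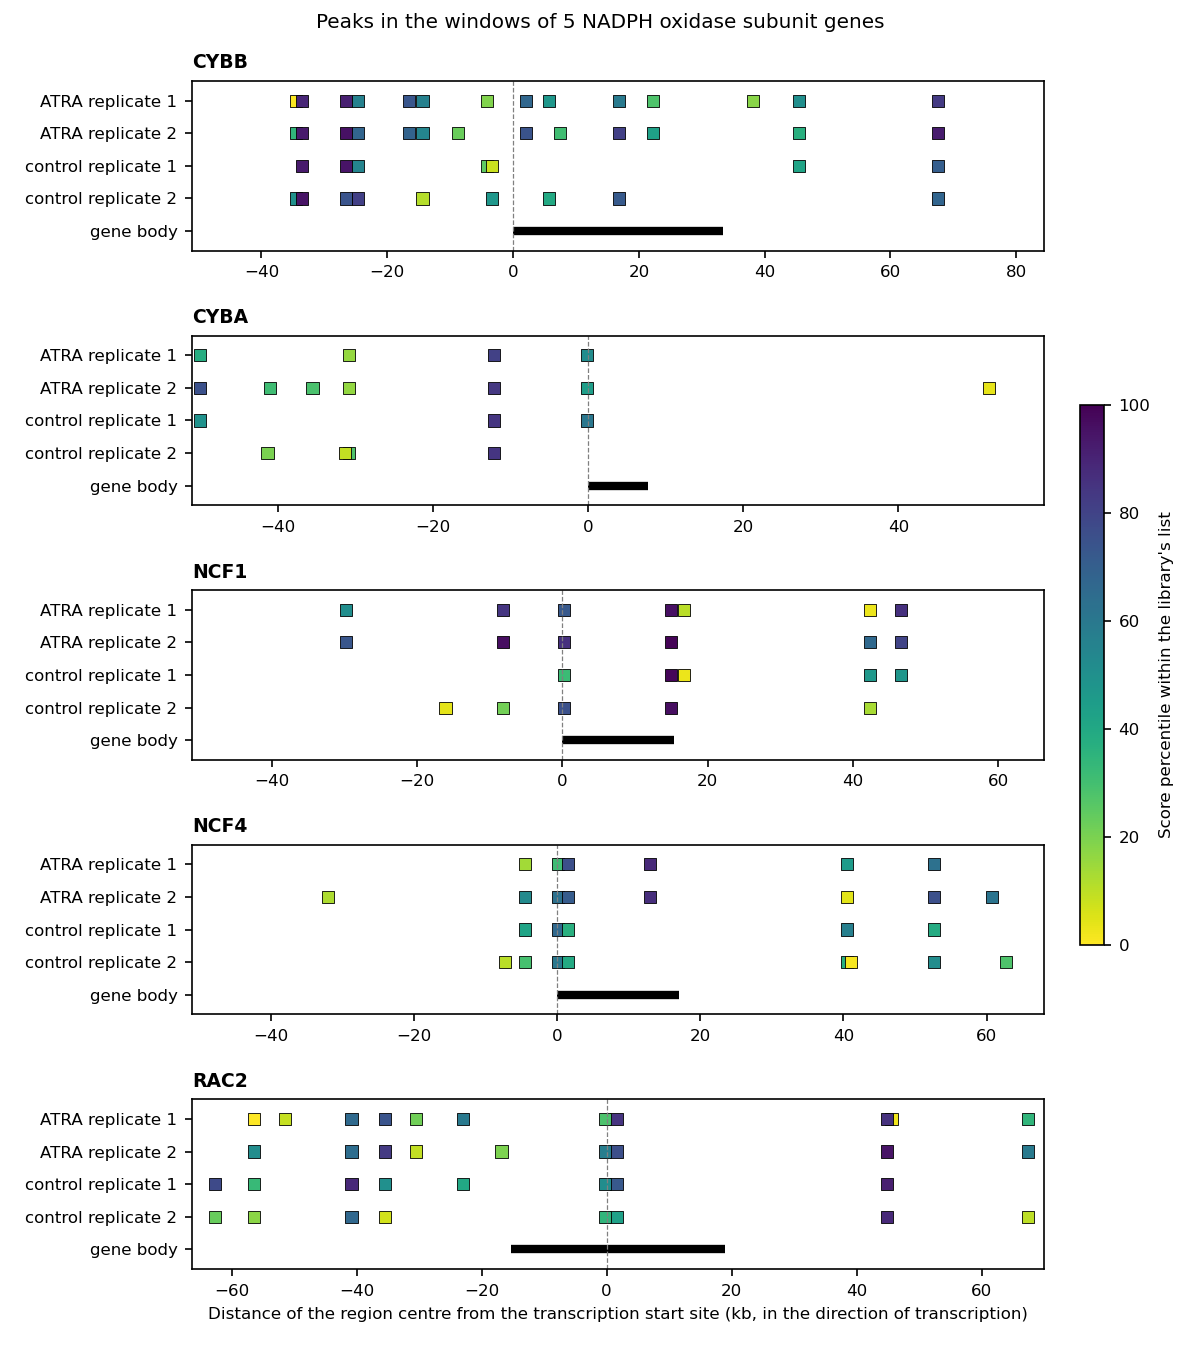
Peaks in the windows of the 5 genes. Each square is a region with a peak in the library named on the y axis, placed at the distance of the region centre from the transcription start site (x axis, kb in the direction of transcription) and coloured by score percentile within that library's list; the black bar is the gene body. The CYBB start site has no peak in any library, and the square at 13.0 kb in NCF4 appears in both ATRA rows and in neither control row.

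The windows held 44 and 43 peaks in the ATRA libraries and 29 and 34 in the control libraries. Both ATRA libraries were above both control libraries, with means of 43.5 ± 0.707 and 31.5 ± 3.54 (SD, n = 2 each; difference 12, two-sided exact permutation test, p = 0.333). That p-value is the smallest that 2 libraries against 2 allow, so no comparison of this kind could reach the usual threshold. Set against the length of each list, the windows held 10.1 and 6.77 peaks per 10000 peaks in the ATRA lists and 6.89 and 7.41 in the control lists, and these groups overlapped (exact permutation test, p = 1).

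Peaks covered 19367 and 25771 bp of the windows in the ATRA libraries and 12813 and 12089 bp in the control libraries. The groups did not overlap, and the mean was 22569 ± 4528 bp with ATRA and 12451 ± 512 bp in the control (SD, n = 2 each, exact permutation p = 0.333). Per 10000 bp covered in the whole list, the windows held 11.1 and 8.15 bp with ATRA and 7.51 and 7.41 bp in the control, again without overlap (exact permutation p = 0.333). Gene by gene, covered bases were higher in both ATRA libraries than in both control libraries for all 5 genes, as they were for 46.2% of all genes with a region. Peak numbers were so for CYBB and RAC2, 2 of the 5, and for 22.9% of all genes. CYBB had the largest gap in peak number, with 15 and 13 peaks against 7 and 9.

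**Figure D2:**
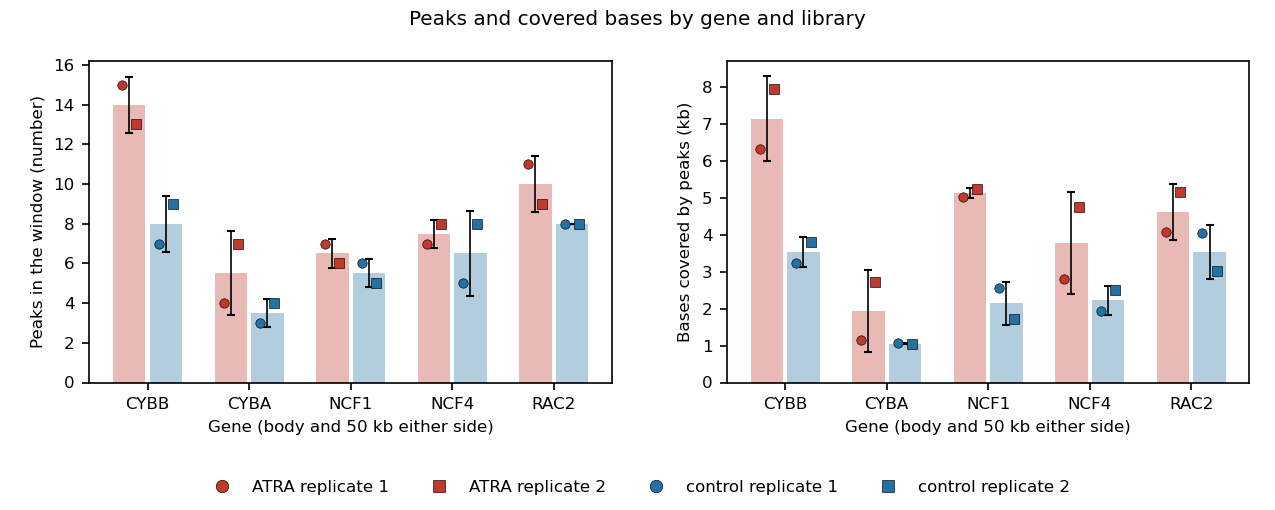
Peaks (left, number) and bases covered by peaks (right, kb) in the window of each gene. Bars are group means, error bars are the SD of 2 libraries, and points are single libraries. The ATRA points lie above the control points for CYBB in both panels, and for all 5 genes in the panel of covered bases, as for 46.2% of all genes.

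Short motifs were searched on both strands in the 200 bases about each region centre, and the sequences printed for each gene carry the matches in capitals. The PU.1 motif was GAGGAAGT, which contains the shorter core GAGGAA. The RUNX motif was AACCACA and the CEBP motif TTGCNNAA. The ETS motif was CCGGAAGT, and an IRF motif was a pair of GAAA sites 2 bases apart. AP-1 was searched as TGACTCA and its complement. A GATA motif was AGATAA, or the same with T as its first base. The DR5 element of retinoic acid receptors and CTCF were searched by their consensus. PU.1, C/EBP factors and IRF8 are known regulators of myeloid genes. The full PU.1 motif was in 9 of the 58 windows of 200 bases (15.5%, against 8.95% of 78025 regions) and the core in 23 (39.7%, against 34.6%). CEBP was in 3 (5.17%, against 12.3%), RUNX in 6 (10.3%, against 8.55%), GATA in 7 (12.1%, against 18.8%), IRF in 2 (3.45%, against 3.4%) and DR5 in 0 (against 0.0961%). AP-1 was in 4 (6.9%, against 5.73%), and ETS and CTCF were in 1 each (1.72%, against 1.12% and 5.88%). Among the 16 ATRA-specific regions, 2 held the full PU.1 motif and 6 held the core. These are letter matches over few regions and do not show that a factor was bound.

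CYBB, the catalytic subunit, lies on the plus strand at chrX:37639271-37672714. Its window held 17 regions, of which 7 were ATRA-specific and 1 was control-specific, and peaks covered 6312 and 7935 bp with ATRA against 3235 and 3806 bp in the control. The CYBB promoter, taken as 1 kb before to 100 bp after the start site, had no peak in any library. The nearest regions were centred at -3.3 kb and 2.0 kb, where distances run from the start site of the gene to the region centre and are negative upstream. The region at 2.0 kb (chrX:37640803-37641737), which overlaps a coding exon just inside the gene, ranked at percentiles 67.1 and 74.4 in the ATRA libraries, with widths of 745 and 935 bp, and had no peak in either control library. The region at -16.5 kb (chrX:37622486-37623062, intergenic) ranked at 73.4 and 68.4 in the ATRA libraries and also had no control peak. The last region of this class, in an intron at 22.2 kb, ranked lower, at 28.0 and 43.1.

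The sequences of the 2 strongest ATRA-specific CYBB regions and of the promoter, where no peak was called, are printed side by side so that their motifs can be compared. The regions are 200 bases about the centre on the plus strand of GRCh37, at chrX:37641171-37641370 and chrX:37622675-37622874. The promoter is from RefSeq (GRCh38.p14, chrX:37779809-37780017, plus strand; 37639062 to 37639270 in GRCh37) and is cut before the first annotated exon.
CYBB, 2.0 kb: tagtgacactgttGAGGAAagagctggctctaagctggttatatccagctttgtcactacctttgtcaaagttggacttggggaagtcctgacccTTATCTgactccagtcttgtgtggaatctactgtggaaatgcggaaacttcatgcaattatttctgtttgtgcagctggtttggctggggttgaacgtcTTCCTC
CYBB, -16.5 kb: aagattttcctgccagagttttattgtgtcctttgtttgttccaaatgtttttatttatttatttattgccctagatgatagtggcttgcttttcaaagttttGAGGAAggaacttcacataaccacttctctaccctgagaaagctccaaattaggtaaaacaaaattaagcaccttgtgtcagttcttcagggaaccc
CYBB promoter: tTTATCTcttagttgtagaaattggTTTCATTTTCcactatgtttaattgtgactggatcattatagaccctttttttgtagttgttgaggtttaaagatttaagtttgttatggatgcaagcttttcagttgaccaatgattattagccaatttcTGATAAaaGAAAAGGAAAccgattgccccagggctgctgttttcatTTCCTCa
The capitals mark 2 PU.1 cores and 1 GATA motif in the region at 2.0 kb and 1 PU.1 core in that at -16.5 kb. In the promoter they mark 2 GATA motifs, 2 IRF motifs and 1 PU.1 core, and these motifs occur in 16.3%, 3.57% and 27.9% of 35114 RefSeq promoters (300 bases each), respectively.

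The other 4 ATRA-specific CYBB regions had a peak in 1 control library. At -14.4 kb the ATRA libraries ranked at 56.5 and 54.0 and the second control library at 11.2, so both ATRA values were higher. In the intron at 16.9 kb the second control library, at 72.0, lay between the ATRA values of 59.3 and 81.1. At 45.4 kb the first control library, at 41.6, lay between 50.7 and 36.8. At -34.5 kb the ATRA libraries ranked at 0.6 and 34.6, below the second control library at 49.9. The region at -34.5 kb was no longer ATRA-specific when the lists were cut to equal length, whereas the regions at -16.5, 2.0 and 22.2 kb kept peaks in both ATRA libraries and in no control library. With a score of at least 100 the region at 22.2 kb had no peak left, and those at -16.5 and 2.0 kb kept this class. Without the first control library 4 of the 7 CYBB regions were ATRA-specific, because those with a peak in the second control library drop out by definition. Such counts, here and for the other genes below, follow from the peaks present in each library. The control-specific region at -3.3 kb was low in one control library and middling in the other (8.0 and 47.0).

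Distal to CYBB, 4 regions had peaks in all libraries. At -33.6 kb the ATRA libraries ranked at 89.2 and 93.0 and the control libraries at 93.1 and 95.0, so this strong region ranked slightly lower with ATRA (by -3.0 percentile points, or -1.11 without the first ATRA library and -4.83 without the second). At -26.6 kb the values were 91.4 and 95.5 against 94.6 and 74.1, and at -24.7 kb 56.6 and 67.9 against 54.9 and 80.9, with overlapping groups in both. The fourth region, at 67.6 kb, is the promoter of the neighbour DYNLT3, a dynein light chain, and ranked higher with ATRA (82.9 and 92.2 against 70.5 and 67.7, a difference of 18.4 points and of 42.9 with a score of at least 100). The strong upstream regions at -33.6 and -26.6 kb were thus present with and without ATRA. The regions without any control peak lay closer to the gene or inside it, but so did the control-specific region at -3.3 kb.

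CYBA, the partner of CYBB in the membrane, lies on the minus strand at chr16:88709683-88717491. Its window held 4 and 7 peaks in the ATRA libraries and 3 and 4 in the control libraries, and these groups overlapped. Of its 9 regions, 3 were ATRA-specific and none was control-specific, and each of the 3 had a peak in 1 control library. The CYBA promoter ranked at 51.6 and 44.5 in the ATRA libraries and at 60.2 in the first control library, and had no peak in the second. It was therefore ATRA-specific by the presence of peaks, although the 1 control peak ranked above both ATRA peaks. The region at -50.0 kb, in an intron of RNF166, ranked at 38.2 and 75.3 with ATRA and 48.9 in the first control library. The region at -30.8 kb, in an exon of SNAI3, ranked at 15.8 and 16.1 with ATRA and higher, at 28.1, in the second control library. Without the first ATRA library 6 CYBA regions were ATRA-specific, and without the second control library 1 was.

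The 1 CYBA region found in all libraries was the promoter of the neighbour MVD, an enzyme of cholesterol synthesis. It ranked at 80.8 and 83.8 with ATRA and 84.4 and 84.5 in the control, a difference of -2.2 percentile points whose sign turned to 0.428 when peaks under a score of 100 were left out. It was -0.685 without the first ATRA library and -3.69 without the second. The other 5 regions came from a single library, 3 in the second ATRA library and 2 in the second control library. The ATRA-specific CYBA region with the highest mean ATRA percentile (chr16:88767322-88767521, GRCh37, plus strand) and the RefSeq promoter before the first exon (GRCh38.p14, chr16:88651084-88651303, minus strand) are shown. Neither holds any of the motifs searched.
CYBA, -50.0 kb: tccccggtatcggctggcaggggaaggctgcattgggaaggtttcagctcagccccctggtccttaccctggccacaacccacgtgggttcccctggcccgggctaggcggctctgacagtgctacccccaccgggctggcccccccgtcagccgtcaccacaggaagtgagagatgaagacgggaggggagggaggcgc
CYBA promoter: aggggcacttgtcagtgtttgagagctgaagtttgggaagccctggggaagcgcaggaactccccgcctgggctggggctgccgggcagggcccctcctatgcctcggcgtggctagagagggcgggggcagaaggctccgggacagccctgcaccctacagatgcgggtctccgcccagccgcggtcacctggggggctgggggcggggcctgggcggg

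**Figure D3:**
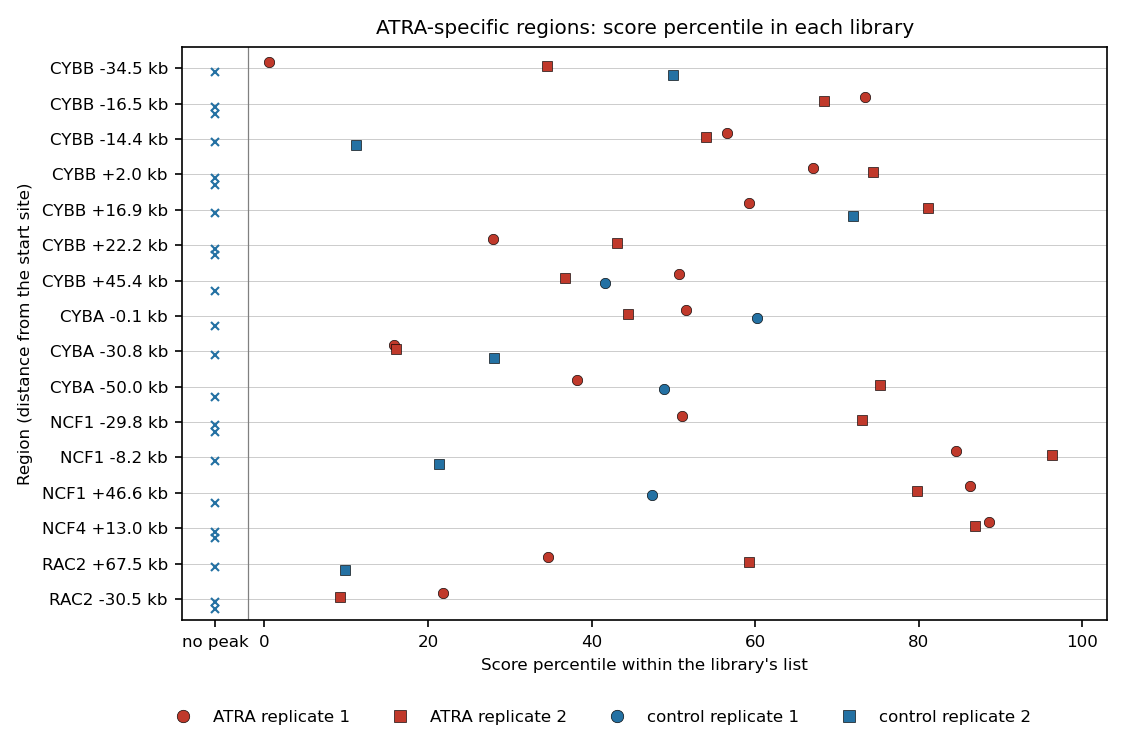
Score percentile (x axis) of the 16 ATRA-specific regions (y axis, gene and distance from the start site) in each library. Circles and squares are replicates 1 and 2, red is ATRA, blue is control, and crosses in the left column mark control libraries with no peak. NCF4 at 13.0 kb has both ATRA points above 80 and no control peak, while CYBB at -34.5 kb and CYBA at -30.8 kb have a control point to the right of both ATRA points.

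NCF1, the organizer that docks the cytosolic subunits onto p22phox, lies on the plus strand at chr7:74188358-74203659, in sequence that is duplicated on the same chromosome in the pseudogenes NCF1B and NCF1C. In each of the 8 NCF1 regions, 94.0% to 100% of all 31-base stretches occurred more than once in the genome, with a median of 3 copies. In CYBA no stretch was repeated, and in NCF4 and RAC2 at most 3.4% and 6.2% of a region were. Among CYBB regions only that at -8.7 kb, found in the second ATRA library alone, was repeated over most of its length (91.7%). A read from such a stretch matches more than 1 copy, and how these reads were placed was not stated, so the values at NCF1 cannot be told apart from those of its copies.

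The NCF1 window was covered over 5019 and 5219 bp in the ATRA libraries and 2543 and 1728 bp in the control libraries, without overlap, although the numbers of peaks were close (7 and 6 against 6 and 5). The region at -8.2 kb (chr7:74179458-74180824, intergenic) ranked at 84.5 and 96.3 in the ATRA libraries, had no peak in the first control library and ranked at 21.3 in the second. Its width was 1028 and 1367 bp with ATRA and 380 bp in that control library. The same position in NCF1B, 99.9% identical, ranked at 81.6 and 96.3 with ATRA and 16.0 and 1.4 in the control. In NCF1C, 99.6% identical, it ranked at 81.1 and 86.2 with ATRA and 48.3 in the first control library, with no peak in the second. Both ATRA libraries thus ranked above every control peak at all 3 copies. The copies may share reads, so they cannot be taken as independent.

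At the NCF1 promoter the ATRA libraries ranked at 72.6 and 86.0 and the control libraries at 31.7 and 75.3, and the groups overlapped (means 79.3 and 53.5, exact permutation p = 0.667), with a difference of 25.8 points that was 4.02 without the first control library and 47.6 without the second. At NCF1B the values were 83.0 and 87.4 against 24.4 and 67.4, and at NCF1C 68.5 and 85.1 against 56.1 and 52.9, without overlap. The region over the 3′ end of the gene, at 15.0 kb, was among the strongest of every list, at 96.0 and 98.9 with ATRA and 98.8 and 96.2 in the control. The intron of GTF2I at -29.8 kb had peaks in both ATRA libraries (51.1 and 73.1) and in no control library. The intron of GTF2IRD2 at 46.6 kb ranked at 86.3 and 79.8 with ATRA and at 47.4 in the first control library only. No region of the NCF1 window was control-specific.

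The region at -8.2 kb is shown (chr7:74180042-74180241, GRCh37, plus strand) as the ATRA-specific NCF1 region with the highest mean ATRA percentile, beside the RefSeq promoter (GRCh38.p14, chr7:74773761-74774010, plus strand).
NCF1, -8.2 kb: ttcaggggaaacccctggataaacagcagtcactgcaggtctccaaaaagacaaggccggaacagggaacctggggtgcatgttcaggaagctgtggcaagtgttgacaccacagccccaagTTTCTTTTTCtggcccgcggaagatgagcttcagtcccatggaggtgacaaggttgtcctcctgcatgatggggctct
NCF1 promoter: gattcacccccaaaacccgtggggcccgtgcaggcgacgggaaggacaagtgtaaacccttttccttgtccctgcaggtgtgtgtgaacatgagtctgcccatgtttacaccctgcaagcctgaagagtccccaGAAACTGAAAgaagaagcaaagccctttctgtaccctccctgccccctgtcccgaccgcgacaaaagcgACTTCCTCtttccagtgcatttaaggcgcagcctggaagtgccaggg
Capitals mark 1 IRF motif in the region, and 1 IRF motif and 1 full PU.1 motif in the promoter. The full PU.1 motif was in 2.59% of RefSeq promoters.

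**Figure D4:**
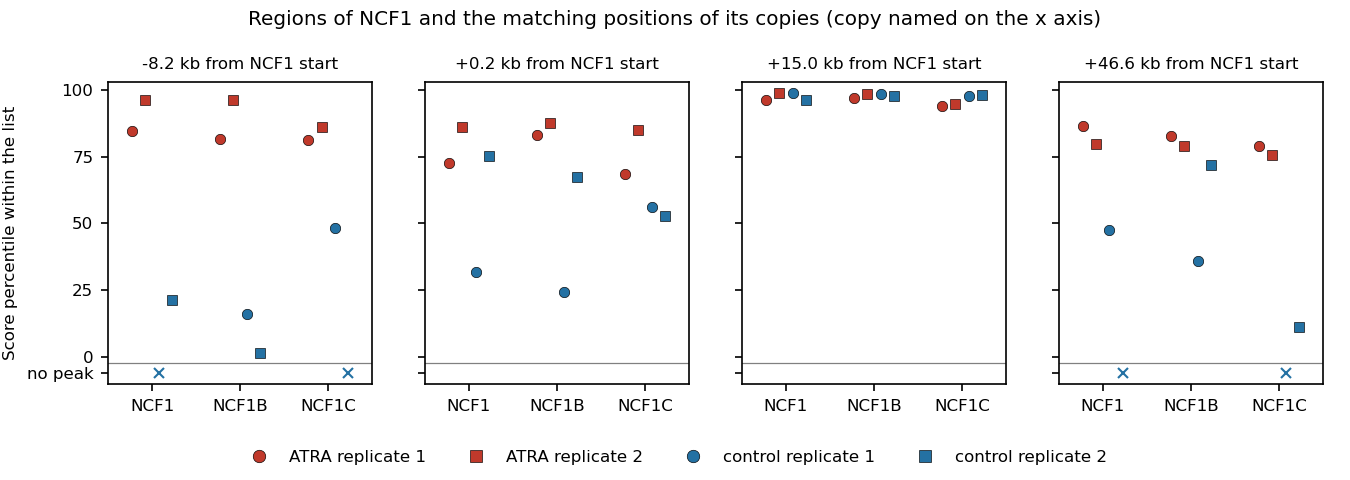
Score percentile (y axis) at 4 NCF1 regions and at the matching positions of NCF1B and NCF1C, by library (red ATRA, blue control, circles replicate 1, squares replicate 2, crosses no peak). At -8.2 kb all ATRA points lie above all control points in the 3 copies, and at 15.0 kb all points lie above 90.

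NCF4, which binds phosphatidylinositol 3-phosphate and holds the cytosolic complex at the phagosome, lies on the plus strand at chr22:37257030-37274059. Its window had 11 regions and 1 ATRA-specific region, with 7 and 8 peaks in the ATRA libraries and 5 and 8 in the control libraries. The ATRA-specific region, in an intron at 13.0 kb (chr22:37269677-37270375), ranked at 88.6 and 86.9 in the ATRA libraries with widths of 670 and 686 bp, and had no peak in either control library. It ranked highest in both ATRA libraries among the 6 regions of this class. It kept its class in the lists of equal length and among peaks with a score of at least 100. Its central 200 bases (chr22:37269927-37270126, GRCh37, plus strand) are shown, as it was the only ATRA-specific region of this window.
NCF4, 13.0 kb: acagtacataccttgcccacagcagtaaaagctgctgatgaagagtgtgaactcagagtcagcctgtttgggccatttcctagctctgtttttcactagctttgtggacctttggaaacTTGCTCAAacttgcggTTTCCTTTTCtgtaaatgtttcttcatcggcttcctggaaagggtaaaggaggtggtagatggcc
Capitals mark 1 CEBP motif followed by 1 IRF motif.

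Close to the NCF4 start, the groups parted at one site and, in the full lists, not at the other. The promoter ranked at 31.3 and 62.6 with ATRA and 66.2 and 59.8 in the control, with overlapping groups (difference -16.1, exact permutation p = 0.667). In the lists of equal length the difference at the promoter was -24.9, and both ATRA libraries ranked below both control libraries. The region at 1.5 kb, over an exon, ranked at 75.9 and 71.1 with ATRA and 36.8 and 39.2 in the control, 35.5 points higher with no overlap (exact permutation p = 0.333). The promoter of the neighbour CSF2RB, the common beta chain of the receptors for interleukin 3, interleukin 5 and GM-CSF, lay at 52.6 kb and ranked at 63.2 and 75.7 against 38.9 and 51.5. The regions at -4.5 kb (13.7 and 52.4 against 41.5 and 29.3) and at 40.5 kb (45.6 and 4.4 against 57.0 and 37.0) overlapped between groups. Without the first ATRA library 3 NCF4 regions were ATRA-specific, and without the second 2 were.

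RAC2, the GTPase of blood cells that activates the oxidase, lies on the minus strand at chr22:37621310-37655634. Its window had 13 regions, 2 of them ATRA-specific and 1 control-specific, and 11 and 9 peaks in the ATRA libraries against 8 in each control library. The RAC2 promoter had a peak in all libraries, at 28.4 and 57.6 with ATRA and 51.5 and 34.5 in the control, with overlapping groups. In the intron at 1.6 kb the values were 85.0 and 75.9 with ATRA and 72.6 and 43.2 in the control, 22.5 points higher without overlap (37.2 without the first control library and 7.82 without the second). In the lists of equal length the difference was 18.7 points and the groups overlapped, as the second ATRA library no longer ranked above the first control library. The intergenic region at -35.4 kb ranked at 74.2 and 83.2 against 50.1 and 7.0, a difference of 50.2 points (exact permutation p = 0.333). Without the second control library, where it was weak, the difference was 28.7 points, and in the lists of equal length it no longer had a peak in every library.

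Both ATRA-specific RAC2 regions were weak or partly present in the control. The region at 67.5 kb ranked at 34.7 and 59.3 with ATRA and at 9.9 in the second control library. The region at -30.5 kb ranked at 21.8 and 9.2 with ATRA, had no control peak, and was not ATRA-specific in the lists of equal length. In introns of the neighbour CYTH4, an exchange factor for ARF GTPases, the region at -40.8 kb ranked lower with ATRA (65.7 and 64.7 against 88.3 and 66.6), by -12.2 points, or -1.39 without the first control library and -23.1 without the second. In the lists of equal length the difference at -40.8 kb was -20.3 points, but the groups overlapped. Also in CYTH4, the region at -62.7 kb had peaks in the control libraries only, at 77.5 and 23.3. The strong intronic region of C1QTNF6 at 44.9 kb was present throughout (85.6 and 94.9 against 91.5 and 88.5). Without the second ATRA library 5 RAC2 regions were ATRA-specific, and without the first control library 1 was. The stronger ATRA-specific region (chr22:37572712-37572911, GRCh37, plus strand) is shown for comparison with those of CYBB and NCF4. It holds none of the motifs searched.
RAC2, 67.5 kb: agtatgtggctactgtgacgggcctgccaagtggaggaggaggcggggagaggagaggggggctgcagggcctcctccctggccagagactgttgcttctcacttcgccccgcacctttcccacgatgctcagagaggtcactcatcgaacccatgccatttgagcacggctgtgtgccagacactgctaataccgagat

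**Figure D5:**
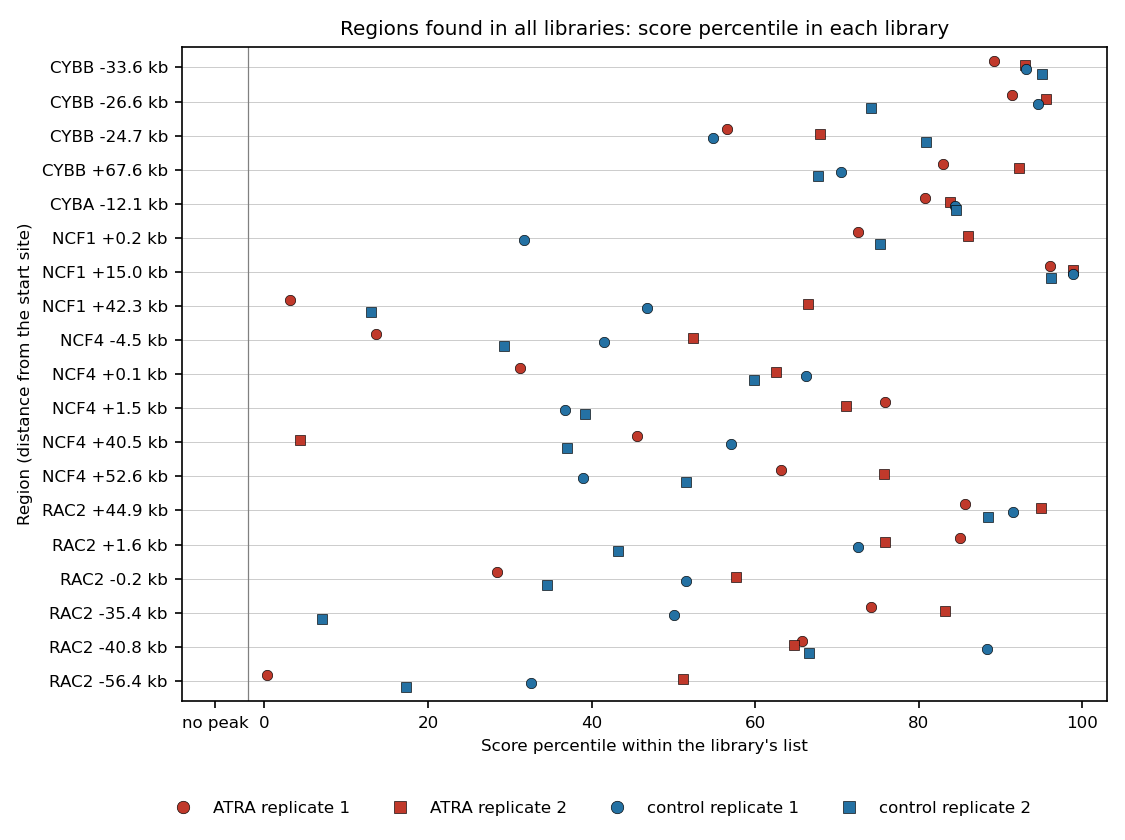
Score percentile (x axis) of the 19 regions with peaks in all 4 libraries (y axis, gene and distance from the start site). Circles and squares are replicates 1 and 2, red is ATRA and blue is control. Both ATRA points lie to the right of both control points in 5 regions, among them NCF4 at 1.5 kb and RAC2 at -35.4 kb, and to the left in 3.

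Of the 19 shared regions, 5 (26.3%) ranked higher in both ATRA libraries than in both control libraries and 3 (15.8%) ranked lower, while the groups overlapped in 11. The same classes held 29.2% and 12.8% of the 23653 regions that had peaks in all libraries genome-wide, so these shares were near the background. The 5 were the DYNLT3 promoter, NCF4 at 1.5 kb, the CSF2RB promoter, and RAC2 at 1.6 kb and -35.4 kb. None of the 3 member promoters with a peak in all libraries was among them. The CYBA promoter could not be, as it had no peak in the second control library. Without the first ATRA library 13 regions ranked higher, and without the second ATRA library 10 ranked lower. Without the first control library 9 ranked higher and 6 lower, and without the second 8 and 6. A library left out eases these rules by construction, and the matching genome-wide shares were not computed.

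Genes tied to the same oxidase were described from a list of 5, CYBC1, RAC1, RAP1A, NCF1B and NCF1C. Their windows held 49 regions, of which 14 (28.6%) were ATRA-specific, 3 were control-specific and 3 had peaks in both ATRA libraries and no control library. NCF1B and NCF1C gave 8 and 7 of these regions, with 1 and 2 ATRA-specific. Their values cannot be told apart from those of NCF1, so this list is not independent of the members. The promoter of CYBC1, a chaperone of the CYBB and CYBA dimer, ranked at 61.2 and 56.2 with ATRA and 49.6 and 4.3 in the control, without overlap. That of RAC1, the widely expressed relative of RAC2, ranked at 75.9 and 87.4 against 79.2 and 39.7, with overlapping groups. That of RAP1A, a small GTPase found with the flavocytochrome, ranked at 65.6 and 47.7 against 1.3 and 2.6, also without overlap.

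A list of 10 genes of the NOX and DUOX enzymes and their partners was set beside them, and the windows held 42 regions, 14 of them (33.3%) ATRA-specific and 0 control-specific. NOX1, NOX3, NOX4 and NOX5, the relatives of CYBB in other tissues, had no promoter peak in any library, as CYBB itself. A list of 10 regulators of the oxidase (kinases, exchange factors, GDP dissociation inhibitors and the proton channel HVCN1) held 138 regions. Of these, 43 (31.2%) were ATRA-specific and 9 were control-specific. Peaks in both ATRA libraries and no control library were found in 25 (18.1%, against 8.94% of all regions). Peak numbers were higher in both ATRA libraries than in both control libraries for 8 of the 10 regulators, against 22.9% of all genes. They overlapped for the other 2, PRKCD and MAPK14. Covered bases were higher for all 10, against 46.2% of all genes. Some regulator windows were wider than those of the members, up to 484.6 kb at PRKCB against at most 134.3 kb. A wider window can hold more regions. PREX1, an exchange factor that loads RAC2 with GTP, had 11 and 13 peaks with ATRA against 3 and 6 in the control. PIK3CG, whose lipid product activates PREX1, had 7 in each ATRA library against 2 and 4. Of the 5 regulator promoters with a peak in all libraries none ranked higher with ATRA, and those of VAV1 (31.8 and 66.3 against 84.6 and 75.5) and ARHGDIB (86.6 and 85.3 against 93.9 and 93.6) ranked lower. Outside these 5, the PREX1 promoter had a peak in both ATRA libraries (26.0 and 18.5) and in neither control library. The promoters of PRKCB and PAK1 lacked a peak in the second control library only. The share of ATRA-specific regions was above the genome-wide 17.9% in all 4 lists, and no test of these shares was made because the genes were chosen with earlier results known.

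By bases covered in each of the 4 libraries, the genes most like CYBB were PHB2 and EMG1 (mean absolute difference 149.5 bp each, with the same values in every library) and CD300A (152.0 bp). KCNK5 was nearest to CYBA (22.0 bp), PAF1 to NCF1 (189.5 bp), UBE2F to NCF4 (77.2 bp) and DHH to RAC2 (62.8 bp). This likeness is a description over 4 libraries, whose list lengths bear on every gene alike.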

How the data were processed

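ATAC-seq peaks of 4 HL-60 libraries were used, 2 given ATRA and 2 given ethanol, with groups from the titles. Per the labels and the study's methods, the authors removed adapters (cutadapt), aligned reads to hg19 with Bowtie or Bowtie2 and called peaks for each library separately. The methods name MACS2 at default parameters and the submitters' processing notes both MACS and MACS2, and which of them wrote the lists is not stated. The deposited score of each peak runs from 50.0 to a ceiling of 3100 on a scale that is not stated. It was therefore used as a rank within its list, except in the setting with a score of at least 100. Handling of PCR duplicates, Tn5 offsets and blacklisted regions is not given in the sources used here, so edges may be off by some bases and repeats may hold peaks. The lists give no read counts, and depth and counting error are therefore unknown.

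Each list has 5 columns. Starts were read as 0-based and are given 1-based. All 24 chromosomes matched GRCh37, and 0 peaks passed a chromosome end. Peaks overlapping by at least 1 bp across libraries were merged into regions, and a region took the highest score of its peaks in a library. Promoters were 1 kb before to 100 bp after the start site. Peak numbers and covered bases were compared by two-sided exact permutation tests over the 6 label assignments (10 tests over the genes, besides the totals), and presence was compared by overlap with no test. Repeated sequence was counted as 31-base stretches over 25 chromosomes, and the copies of NCF1 were aligned with blastn 2.17.0. The software was Python 3.11.15, numpy 2.4.6, pandas 2.3.3, pysam 0.24.0, samtools 1.23.1 and matplotlib 3.10.9. The scripts were tested on simulated data.

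The genes, the lists and the motifs were chosen with earlier results of these data known, and 2 listed genes are not reported here. All regions that were ATRA-specific, control-specific or at a member promoter were described, along with neighbours whose start site lies in a window, the listed oxidase genes, and the genes of most like covered length (up to 3 per member). Of the 5 genes, 3 were in the RefSeq promoter table. Alternatives were the window (gene body, 10 kb and 100 kb flanks), lists of equal length, a score of at least 100, peaks set to 200 bp, an overlap of 50%, each library left out, a replicate block and the removal of NCF1.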

Additional observations from a re-analysis of the deposited data

How the results depend on the processing

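The counts in the 5 windows (16 ATRA-specific, 2 control-specific, 6 with no control peak, 5 higher and 3 lower among shared regions) moved with the window, the score minimum and the libraries used. In the gene bodies alone they were 5, 0, 3, 2 and 0, and with 10 kb flanks 6, 1, 3, 2 and 0. With 100 kb flanks, without NCF1, with peaks set to 200 bp and with an overlap of 50% each count was within 1.5 times its value. With lists of equal length, control-specific regions were 5 and higher-ranking ones 3. With a score of at least 100, control-specific regions were 1, regions with no control peak 10, and higher and lower ones 1 and 0. Leaving out each library in turn, which by construction eases the rule for its group, gave 10 to 24 ATRA-specific, 2 to 9 control-specific, 10 to 14 with no control peak, 5 to 13 higher and 4 to 10 lower regions. The rules for no control peak and for higher or lower rank are eased by leaving out any library, so a rise in these counts was built in. The control-specific counts were 9 without the first and 5 without the second control library. The difference in peak number was 9.5 to 14.5 across these, and positive in every alternative run. The labels do not say that equal replicate numbers mark a shared batch, and the deviations of same-numbered libraries correlated at 0.21 over 23653 regions. With the replicate block, by which both same-numbered pairs must show the difference, 6 regions were ATRA-specific (by construction those with no control peak), 6 ranked higher and 4 lower, and the difference in peak number gave p = 0.5 (exact), the smallest the block allows. Among regions ranking higher or lower, the MVD promoter near CYBA turned in sign with a score of at least 100 (0.428). Depth is unknown and 2 libraries a group are few, so the absence of a peak does not show that a site was closed.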
